A study of Mus musculus with 6 samples.

Results

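Integrin and laminin chain genes are described here in tumours grown from CT26 cells in mice given PEGylated glutaminase or vehicle. Members were all protein coding gene models whose symbol names an integrin alpha or beta chain, Itgbl1, or a laminin alpha, beta or gamma chain. The rule used the symbols alone and no measured value. It found 36 genes among 20056 protein coding models, in a table of 40303 gene models. Of these, 25 belong to the integrin side (16 alpha chains, 8 beta chains and Itgbl1) and 11 are laminin chains (5 alpha, 3 beta and 3 gamma). The pattern of symbols leaves out 2 integrin alpha chains named by other letters, Itgax and Itgae, and these are given beside the members.

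CT26 is a mouse colon carcinoma line of BALB/c origin. The tumours grew under the skin of 6 BALB/c hosts, all labelled WT, and RNA was sequenced from 1 tumour per mouse. In the PEG-glutaminase group, 3 mice were injected into the peritoneum with 50 IU per kg of PEGylated glutaminase, an enzyme that splits glutamine in the circulation. In the vehicle group, 3 mice received phosphate-buffered saline with 10% glycerol. Each mouse had 2 injections, spaced 3 days apart. No age is stated for the mice in the labels. The model is 1 transplanted line, so a library mixes cancer cells with host vessels, fibroblasts and leukocytes. In such bulk tissue, fewer cells of a type and less RNA per cell cannot be told apart.

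Integrins are cell surface receptors made of 1 alpha and 1 beta chain. They bind matrix proteins or counter-receptors on other cells, and their short tails connect to actin through talin, kindlin and a set of adaptors. Laminins are secreted heterotrimers of 1 alpha, 1 beta and 1 gamma chain. They polymerise into the sheet on which basement membranes are built, together with collagen IV, nidogens, perlecan and agrin. Integrins with the Itga3, Itga6 and Itga7 chains are laminin receptors, so the families meet at the basement membrane of vessels and epithelia.

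The sequences upstream of 5 members described below are shown. In every PEG-glutaminase library the laminin chains Lama5 and Lamb1 were above, and Itgb5, Itgbl1 and Itgb8 below, every vehicle library. Over all genes tested, 13.1% were higher and 12.7% lower without overlap. Itga2, Itga2b and Itga3 also separated the groups and have such a sequence, but are not shown. Each printed sequence is the 250 bases before the annotated start, 5′ to 3′ on the gene's strand. It comes from the RefSeq promoter table of build GRCm38.p6. That build is the C57BL/6J reference, while the counted gene models carry a BALB/cJ prefix in their identifiers. Capitals mark the GC box, GGGCGG on either strand, the motif of Sp-family factors.
Lama5 at chr2:180225860-180226109, minus strand: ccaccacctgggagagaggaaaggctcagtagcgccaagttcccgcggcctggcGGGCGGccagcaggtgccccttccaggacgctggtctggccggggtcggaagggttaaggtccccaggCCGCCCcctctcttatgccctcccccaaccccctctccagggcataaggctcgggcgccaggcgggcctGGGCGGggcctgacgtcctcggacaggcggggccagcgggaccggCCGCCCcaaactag
Lamb1 at chr12:31265043-31265292, plus strand: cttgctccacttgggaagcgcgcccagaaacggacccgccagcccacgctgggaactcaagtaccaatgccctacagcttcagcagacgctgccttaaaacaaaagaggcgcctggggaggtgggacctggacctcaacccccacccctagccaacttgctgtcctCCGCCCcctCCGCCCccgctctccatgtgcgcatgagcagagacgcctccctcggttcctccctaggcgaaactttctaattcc
Itgb5 at chr16:33829415-33829664, plus strand: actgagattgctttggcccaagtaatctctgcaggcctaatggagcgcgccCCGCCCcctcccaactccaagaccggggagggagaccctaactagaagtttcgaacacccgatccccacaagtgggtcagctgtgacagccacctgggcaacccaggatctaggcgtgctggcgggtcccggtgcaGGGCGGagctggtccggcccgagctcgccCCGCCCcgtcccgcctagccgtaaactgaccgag
Itgbl1 at chr14:123659890-123660139, plus strand: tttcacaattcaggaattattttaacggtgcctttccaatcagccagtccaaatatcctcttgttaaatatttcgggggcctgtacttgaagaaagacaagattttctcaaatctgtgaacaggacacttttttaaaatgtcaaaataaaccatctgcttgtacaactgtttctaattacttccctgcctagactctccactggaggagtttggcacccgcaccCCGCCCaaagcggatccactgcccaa
Itgb8 at chr12:119238277-119238526, minus strand: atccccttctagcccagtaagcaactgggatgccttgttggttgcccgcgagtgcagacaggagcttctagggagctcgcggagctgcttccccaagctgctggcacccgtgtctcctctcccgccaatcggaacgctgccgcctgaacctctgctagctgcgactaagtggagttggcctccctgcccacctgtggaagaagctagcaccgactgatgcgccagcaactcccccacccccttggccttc

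Lama5 carried 4 GC boxes in this window, Itgb5 carried 3, Lamb1 carried 2, Itgbl1 carried 1 and Itgb8 none. Of the 23 members with an entry in the table, 9 (39.1%) held at least 1 GC box, against 32.74% of all 32851 promoter windows of the same length. At least 3 GC boxes stood upstream of 3 members, and of 8.469% of all windows. Members were counted as genes, by any of their windows, and Itga3, Itgb6 and Lamb3 had more than 1. The shares over all are per window, so the units differ. The other motifs searched on both strands were TGANTCA (AP-1, in 6.749% of all windows), TGATGNAA (the ATF4 composite element, 3.452%) and TATAAA (12.37%). None of the 23 members held any of these in its window, which says only that those letters are not there. The upstream sequences of genes that were higher and of genes that were lower both included windows with several GC boxes.

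Expression is given as normalized counts, which are reads scaled by a size factor per library. Whole reads could be recovered, and vehicle libraries held 17380129 to 18051480 of them and PEG-glutaminase libraries 16455052 to 16791267. The 6 epithelial markers were low and did not settle the tumour label, and Krt18 alone ran from 131 to 263 normalized counts. They summed to 204 to 398 normalized counts per vehicle library and 212 to 258 per PEG-glutaminase library, and Epcam stood between 2.07 and 8.83 in all libraries but vehicle 1, where it was 58.0. Some libraries stood apart. Vehicle 1 held far more keratinocyte marker RNA than the others (7764 normalized counts over 8 markers, against 64.3 to 224), and PEG-glutaminase 2 held the least T and NK cell marker RNA (236, against 751 to 1736) and the most skeletal muscle marker RNA (1717, against 60.7 to 1045).

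The comparison asks which chains differed in abundance between tumours of treated and control mice. Laminin chains tended to be higher after PEG-glutaminase: 7 of 9 tested chains had a positive difference and their median log2 difference was 0.36. The integrin side had no common direction, with 11 higher and 12 lower of 23 and a median of -0.00106. Over all 13557 genes tested the median was -4.97e-05 and 50% were higher. No single member passed the threshold of 0.05 for the adjusted p in limma, and the lowest adjusted p, 0.0757, was that of Itgbl1.

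Genes were tested where the mean over the 6 libraries reached 10 normalized counts, which 32 of the 36 members did. Differences are PEG-glutaminase minus vehicle on the log2(value + 1) scale, with their standard error (SE), from limma fitted across all genes. This scale understates the change of low genes. limma called 0.0369% of all genes and 0 of 32 members. At an unadjusted p under 0.05 it marked 9 members, or 28.1%, against 18.4% of all genes. Of these 9, 5 were higher (8.92% of all genes were) and 4 were lower (9.51% of all genes). The 4 lower ones were Itgbl1, Itgb8, Itgb5 and Itga2b, and the 5 higher ones were Itga3, Lamb1, Lamc1, Lama5 and Lama4. The groups did not overlap for 6 members that were higher, against 13.1% of all genes, and for 4 that were lower, against 12.7% of all genes. On the laminin side 4 of 9 were marked, all higher, and on the integrin side 5 of 23, of which 1 was higher. The difference between the families was not tested, since genes of a family share libraries and are not replicates.

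DESeq2 on the recovered reads called 5 of the 28 members to which it gave an adjusted p, against 4.18% of all genes. These were Itgbl1, Itgb8 and Itgb5, which were lower, and Lamb1 and Lamc1, which were higher. edgeR called none of them at an adjusted p under 0.05, as limma did, so the calls depend on the tool. The SE of the 32 tested members ran up to 0.54 on the log2 scale, for the low-abundance Lamb3.

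**Figure D1:**
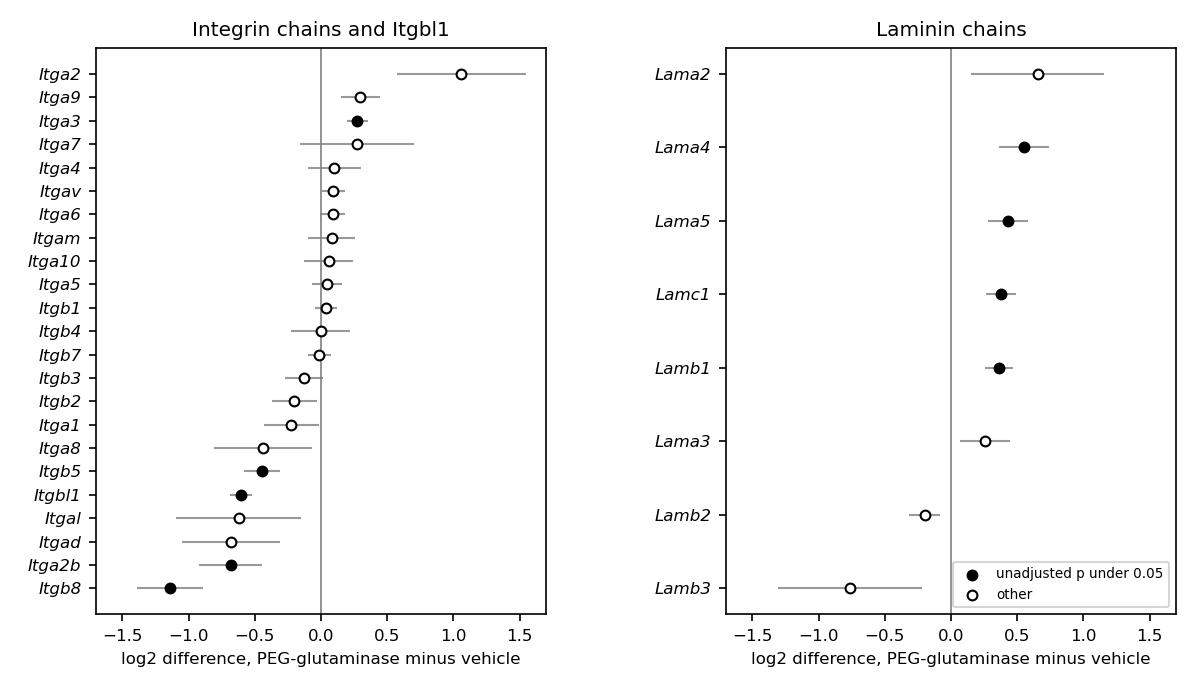
Log2 difference (PEG-glutaminase minus vehicle, on the log2(value + 1) scale; points) with its SE (bars) for the 23 tested integrin genes and 8 of the 9 tested laminin genes, each panel sorted by size. Filled points have an unadjusted limma p under 0.05. In the laminin panel 6 of 8 points lie to the right of 0, while the integrin points spread from -1.14 for Itgb8 to 1.06 for Itga2.

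Levels were compared between genes only per kilobase of the longest annotated transcript. Itgb1, the beta chain that pairs with the most alpha chains, was the most abundant integrin at 4287 ± 94.9 normalized counts per kb in vehicle tumours (SD, n = 3) and 4402 ± 144 with PEG-glutaminase. It made up 48.6% to 59.2% of all integrin beta chain RNA per kb in a library. Next came Itgb5 at 1798 ± 80.0 and 1337 ± 256 per kb. The most abundant alpha chain was Itga6, a laminin receptor chain, at 1183 ± 74.0 and 1260 ± 123 per kb, or 36.6% to 39.3% of alpha chain RNA. Itga5, the fibronectin receptor chain, held 20.8% to 23.8% of it. Itgb7, a leukocyte beta chain, stood at 956 ± 61.6 and 949 ± 77.2 per kb, above Itga5 in every library. Itga5, Itgb2, Itgb4 and Itgbl1 came next, and in this order the ranges of neighbours overlapped, as did those of Itgb5 and Itga6.

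Among laminins, 1 chain of each kind dominated. Lama5 made up 87.8% to 90.9% of alpha chain RNA per kb and Lamb1 77.9% to 87.5% of beta chain RNA, and Lamc1 was the most abundant gamma chain. Together these form laminin-511, the main laminin of vessel and many epithelial basement membranes. Lama4, the other alpha chain typical of vessels, was second at 6.54% to 9.49%, and Lama3, of epithelial laminin-332, held 1.74% to 2.39%. Lama5, Lamb1 and Lamc1 led their kinds in all 6 libraries.

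**Figure D2:**
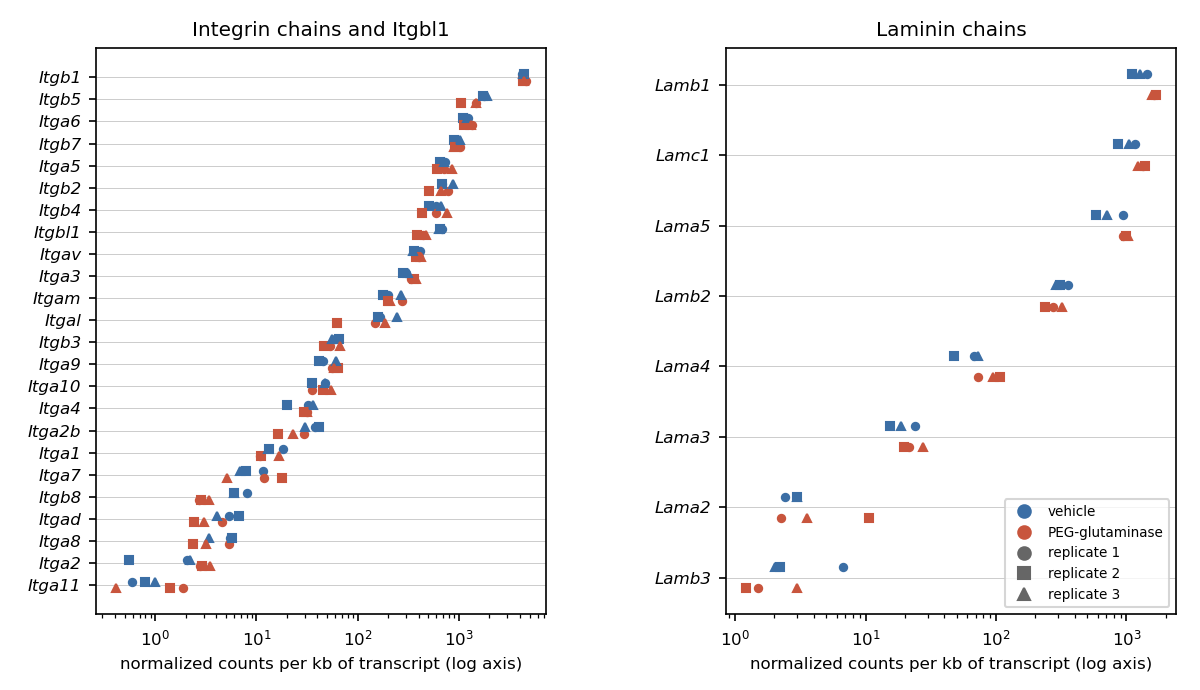
Normalized counts per kb of the longest transcript (log axis) in each library for the members described singly that have a mean of at least 1 per kb, sorted by their mean over 6 libraries; blue is vehicle, red is PEG-glutaminase, and the symbol shape gives the replicate. Itgb1 leads the integrins at 4209 per kb or more in every library and Lamb1, Lamc1 and Lama5 lead the laminins; Itgb6, Lamc3 and Lama1 fall under 1 per kb and are not drawn.

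The 3 chains of laminin-511 were each higher in all PEG-glutaminase libraries than in any vehicle library. Lamb1 stood at 8306, 6367 and 7313 normalized counts in vehicle 1, 2 and 3 and at 9338, 9659 and 9093 with PEG-glutaminase. Lamc1 stood at 8844, 6585 and 7951 in vehicle and at 10270.4, 10634 and 9335 with PEG-glutaminase. Lama5 stood at 10643, 6701 and 8060.0 in vehicle and at 10682, 11301 and 11619 with PEG-glutaminase. In each gene vehicle 2 was the lowest library. For Lama5 the gap between the groups was narrow, because vehicle 1 lay close to PEG-glutaminase 1.

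In limma the difference was 0.36 ± 0.10 for Lamb1 (SE; adjusted p = 0.148), 0.38 ± 0.11 for Lamc1 (adjusted p = 0.154) and 0.43 ± 0.15 for Lama5 (adjusted p = 0.202). As a ratio of group means these chains were 1.28, 1.29 and 1.32 times as abundant with PEG-glutaminase. DESeq2 gave adjusted p-values of 0.0418, 0.0491 and 0.0890. Without vehicle 2 the Lama5 difference was 0.27, no longer at an unadjusted p under 0.05, and without vehicle 1 it was 0.61. The count of laminin chains rested partly on vehicle 2. Without it the number of laminin chains at an unadjusted limma p under 0.05 was 2 instead of 4, and the median of the family was 0.26. Without PEG-glutaminase 3 it was also 2, plus 1 lower chain. Leaving out vehicle 1 and PEG-glutaminase 2 together gave 4, all higher, and a median of 0.43.

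Lama4, which replaces Lama5 in laminin-411, followed the same direction. It stood at 407, 288 and 439 normalized counts in vehicle and at 441, 648 and 568 with PEG-glutaminase, a difference of 0.55 ± 0.19 (limma adjusted p = 0.198). Vehicle 3 and PEG-glutaminase 1 were nearly level. Lamb2, the beta chain of laminin-521, had a negative difference. Its values were 2001, 1750.03 and 1613 in vehicle and 1548, 1341 and 1793 with PEG-glutaminase, and the groups overlapped (-0.20 ± 0.12; limma adjusted p = 0.378). That value rested on the libraries that stood apart: it was -0.12 without vehicle 1, -0.096 without PEG-glutaminase 2 and -0.012 without both.

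The ratio of the 2 main beta chains did not overlap between the groups. Lamb2 over Lamb1, per kb, was 0.248, 0.282 and 0.227 in vehicle and 0.170, 0.143 and 0.203 with PEG-glutaminase. Every PEG-glutaminase tumour lay below every vehicle tumour. With 3 against 3 an exact permutation test cannot give a p below 0.1, and no other test was run on this ratio. By contrast, the ratio of Lamc1 to Lamb1, chains that sit in the same trimer, stayed between 0.779 and 0.835 in all 6 libraries, and Lama5 to Lamb1 between 0.535 and 0.651. The beta and gamma chains thus kept nearly fixed proportions across libraries whose Lamb1 level ran from 6367 to 9659.

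Lama3 and Lamb3, of epithelial laminin-332, were less abundant and overlapped between the groups. Lama3 was 161 to 253 normalized counts in vehicle and 208 to 289 with PEG-glutaminase (0.26 ± 0.19). The Lama3 difference was 0.43 when vehicle 1 was left out, and was 0.10 when vehicle 2 was and 0.12 when PEG-glutaminase 3 was. Lamb3 was 32.8 in vehicle 1 and 5.94 to 14.4 in the other 5 libraries. Vehicle 1 is the library with the high keratinocyte markers, of which 6 of 8 were tested. The Lamb3 difference was -0.76 ± 0.54, and -0.24 without vehicle 1. The part of these markers in it was not tested.

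Lama2, the chain of muscle and Schwann cell laminin-211, was 102 normalized counts in PEG-glutaminase 2 and 21.8 to 33.9 in the others. Its difference of 0.65 ± 0.50 was -0.06 without vehicle 1 and PEG-glutaminase 2. PEG-glutaminase 2 was also highest for the 8 muscle markers and for the 4 Schwann cell markers, which summed to 375 there and to 105 to 147 in the others. Of the Schwann markers, Sox10 was at most 2.07 in any library. The part of these cells was not tested.

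Other basement membrane genes were read from a list of 12. None passed the adjusted threshold in limma, 3 (25%) had an unadjusted p under 0.05, all higher, against 8.92% of all genes in that direction, and DESeq2 called 1, against 4.18% of all genes. Of the 12, 8 were higher, with a median of 0.20. Col18a1, which yields endostatin, stood at 2149, 2060.02 and 2455 normalized counts in vehicle and at 2963, 3337 and 2865 with PEG-glutaminase (0.46 ± 0.09; limma adjusted p = 0.113; DESeq2 adjusted p = 0.00345). The nidogens, which link laminin to collagen IV, were 0.40 ± 0.15 (Nid1; limma adjusted p = 0.231) and 0.47 ± 0.16 (Nid2; limma adjusted p = 0.183) higher. Col4a1, a chain of the main collagen IV, was 0.24 ± 0.11 higher with overlapping groups. Without PEG-glutaminase 2 the differences of Nid1, Nid2 and Col4a1 were 0.25, 0.31 and 0.13, and that of Col18a1 was 0.40. Without vehicle 2 the count of 3 became 1, and without vehicle 1 it became 6.

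Markers of the cells that make vascular basement membrane were set beside these values. The 9 endothelial markers summed to 3299 to 3464 normalized counts in vehicle and to 3603, 4501 and 3329 with PEG-glutaminase 1, 2 and 3. The 7 pericyte markers summed to 3347 to 4009 and 3526 to 4632. The 5 fibroblast markers summed to 16001 to 18031 and 14807 to 19549. All 3 sums overlapped between the groups and were highest in PEG-glutaminase 2. Single markers differed from their sums. Of the endothelial markers 7 of 9 had a positive difference, against 50% of all genes. Kdr (0.62, limma adjusted p = 0.154, DESeq2 adjusted p = 0.0322) was higher in every treated tumour. So was, only just, Cdh5 (0.25, limma adjusted p = 0.246, DESeq2 adjusted p = 0.254), while Cldn5 (-0.58) was lower in every one. Over all genes 13.1% were higher and 12.7% lower without overlap. At an unadjusted limma p under 0.05, 22.2% of the endothelial markers were higher and 11.1% lower, against 8.92% and 9.51% of all genes. Of the pericyte markers 6 of 7 had a positive difference. Mcam (0.29, without overlap) and Cspg4 (1.05, with overlap) had an unadjusted limma p under 0.05. These are 28.6% of the pericyte markers, against 8.92% of all genes in that direction. Col1a1 made up 33.5% to 74.1% of the fibroblast sum, and the other 4 fibroblast markers summed to 8275 to 10636 in vehicle and 5057 to 8222 with PEG-glutaminase. Each of the 5 fibroblast markers overlapped between the groups by itself, and 3 had a negative difference. Thy1 (-0.31), or 20% of them, had an unadjusted limma p under 0.05, against 9.51% of all genes in that direction. Vehicle 2, the lowest library for the laminin-511 chains, was also lowest for the endothelial and pericyte sums. The part of these cells in the laminin difference was not tested.

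**Figure D3:**
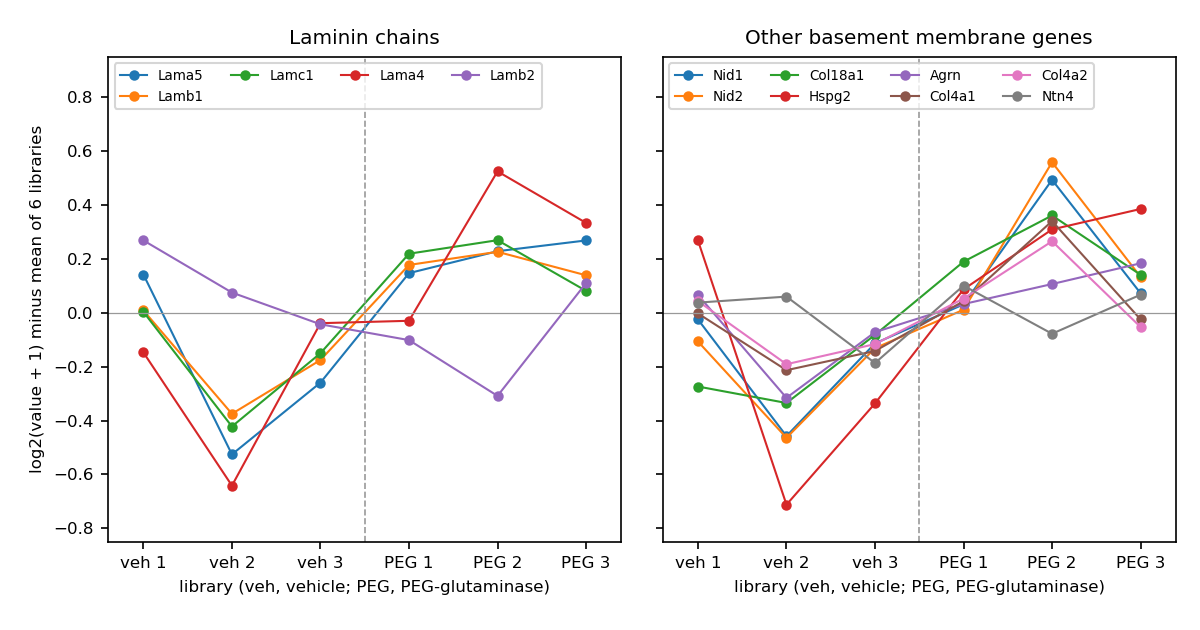
Deviation of log2(value + 1) from each gene's mean over 6 libraries for 5 laminin chains (left) and 8 matrix genes of the basement membrane list (right); lines only join the points of a gene and the dashed line divides vehicle from PEG-glutaminase. Lama5, Lamb1, Lamc1 and Lama4 are lowest in vehicle 2, as are all the genes on the right but Ntn4, and Lamb2 is lowest in PEG-glutaminase 2.

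Of the beta chains that pair with Itgav, Itgb5 and Itgb8 were lower in every treated tumour, and Itgb1 and Itgb3 were not. Itgav, the alpha chain of receptors for vitronectin and for latent TGF-beta, stood at 2639 ± 253 and 2813 ± 165 normalized counts, with overlapping groups (0.09 ± 0.09; limma adjusted p = 0.591). Itgb5, its vitronectin receptor partner, stood at 5819.5, 5691 and 6196 in vehicle and at 4864, 3415 and 4880.4 with PEG-glutaminase. Every treated tumour was below every control, and PEG-glutaminase 2 was the lowest. The difference was -0.45 ± 0.13 (limma adjusted p = 0.159; DESeq2 adjusted p = 0.0418). Without PEG-glutaminase 2 it was -0.28, a smaller value in the same direction.

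Itgb8, whose pair with Itgav activates latent TGF-beta, was a low-abundance gene with the lowest log2 difference of all members. It stood at 68.6, 51.0 and 51.0 normalized counts in vehicle and at 22.8, 23.8 and 28.8 with PEG-glutaminase. The vehicle mean was 2.26 times that of the treated tumours, and the groups were well apart. The difference was -1.14 ± 0.25 (limma adjusted p = 0.114; DESeq2 adjusted p = 0.0362), and leaving out single libraries gave -1.24 to -1.001. Itgb3, another partner of Itgav, overlapped between the groups (348 ± 29.1 and 321 ± 59.3; -0.13 ± 0.14), and its difference was -0.0092 without PEG-glutaminase 2. Itgb1, which can also pair with Itgav, is given with the laminin receptors. Itgb6 was too low to test.

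Set per kb against Itgav itself, the Itgb5 ratio was 4.27, 4.86 and 5.39 in vehicle and 3.70, 2.78 and 3.53 with PEG-glutaminase. The Itgb8 ratio was 0.0197, 0.0170 and 0.0173 in vehicle and 0.00678, 0.00755 and 0.00814 with PEG-glutaminase. Neither ratio overlapped between the groups, and that of Itgb3 did. Itgb5 and Itgb8 separated the groups by themselves and Itgav differed little, so these ratios largely restate the single genes. No test was run on them. As a share of all beta chain RNA per kb, Itgb5 lay between 20.9% and 21.5% in vehicle and between 14.4% and 18.0% with PEG-glutaminase. Of the 7 tested beta chains 6 had a negative difference, with a median of -0.13. Of the 15 tested alpha chains 10 had a positive one, with a median of 0.08. Over all genes tested 50% were higher. The alpha chain count leaves out Itgax (-1.11) and Itgae (-0.69), which the symbol rule misses and which were both lower. The beta and alpha chain counts depended on single libraries. Without PEG-glutaminase 2 the negative beta chains numbered 4 of 7, with a median of -0.0092, and without vehicle 2 the positive alpha chains numbered 6 of 15, with a median of -0.041. Itgb4, at -0.00106, is 1 of the 6 negative beta chains, and its sign turned in edgeR, DESeq2 and limma with TMM scaling.

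Itgbl1 had the lowest p of all members. It encodes a secreted protein with repeats like those of integrin beta chains but no ligand-binding head or membrane anchor, so it is not a receptor chain. Its values were 2747, 2662 and 2585 normalized counts in vehicle and 1786, 1585 and 1903 with PEG-glutaminase, so the vehicle mean was 1.52 times that of treated tumours. The spread within groups was small (2665 ± 81.0 and 1758 ± 161, SD, n = 3). The difference was -0.60 ± 0.09 with a 95% interval of -0.79 to -0.41 (limma adjusted p = 0.0757). It passed in DESeq2 (adjusted p = 5.43e-06) and not in edgeR (adjusted p = 0.0808). In limma it passed without PEG-glutaminase 2 (adjusted p = 0.0452) or without PEG-glutaminase 3 (adjusted p = 0.0401), with differences of -0.53 and -0.66. Leaving out vehicle 1 and PEG-glutaminase 2 together gave -0.51.

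**Figure D4:**
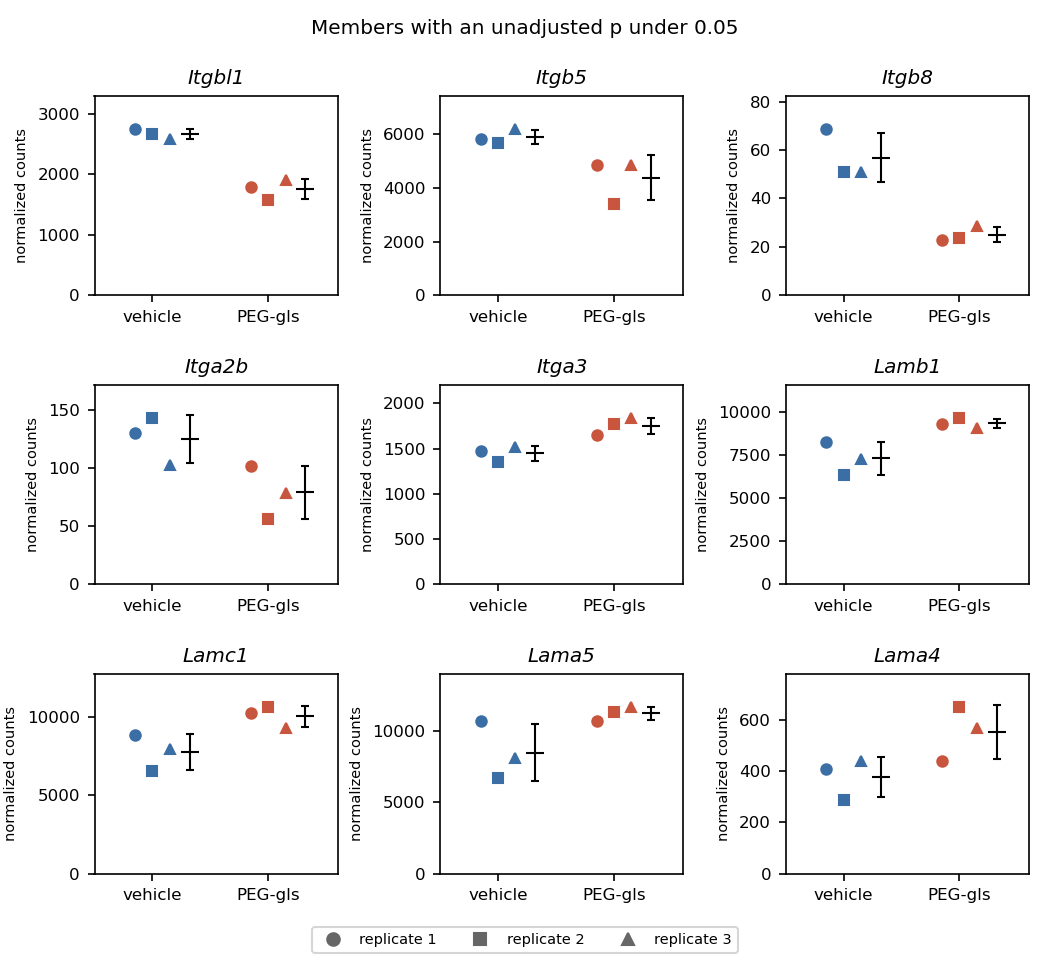
Normalized counts in each library for the 9 members with an unadjusted limma p under 0.05, with the group mean and SD (n = 3) as black bars; PEG-gls is PEG-glutaminase and the shape gives the replicate. In all 9 panels the groups do not overlap, narrowly so for Itga2b, Lama5 and Lama4, and widely for Itgbl1 and Itgb8.

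Of the laminin receptor chains, Itga3 differed most clearly. It pairs with Itgb1 and binds laminin-511 and laminin-332. It stood at 1475, 1353 and 1517 normalized counts in vehicle and at 1654, 1768 and 1834 with PEG-glutaminase, higher in all 3 treated tumours. The difference was 0.28 ± 0.08 (limma adjusted p = 0.152; DESeq2 adjusted p = 0.0949). The ratio of Itga3 to Itgb1 per kb was 0.0696 ± 0.00541 in vehicle and 0.0820 ± 0.00640 with PEG-glutaminase. Its groups were only just apart, at 0.0733 in vehicle 3 and 0.0747 in PEG-glutaminase 1.

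The other chains of laminin receptors overlapped between the groups. Itga6 was 4735 to 5339 normalized counts in vehicle and 4820 to 5782 with PEG-glutaminase (0.09 ± 0.09). Itgb4, which joins Itga6 in hemidesmosomes, was 3115 to 4167 and 2668 to 4752, a difference of -0.00106 ± 0.22. Itgb1 itself was 16355 ± 362 and 16793 ± 551, with a difference of 0.04 and a 95% interval of -0.15 to 0.23. The interval for Itgb1 does not reach the size of the Itgb5 or Itgbl1 differences. Itga7, the muscle laminin receptor chain, was 72.3 in PEG-glutaminase 2 and 20.6 to 47.6 elsewhere, and its difference of 0.27 ± 0.43 was -0.12 without that library, the one with the most muscle marker RNA. The part of muscle in it was not tested.

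Collagen receptor alpha chains were scarce. Itga2 stood at 14.5, 3.92 and 15.7 normalized counts in vehicle and at 19.7, 20.8 and 24.7 with PEG-glutaminase, the highest log2 difference of all members at 1.06 ± 0.49. The groups did not overlap, but the unadjusted p was 0.0556 (limma adjusted p = 0.283), and vehicle 2 alone was far below the other controls. Without vehicle 2 the difference was 0.49. Itga1 (118 to 200.9 over the 6 libraries) and Itga10 (179 to 278) overlapped between groups, and Itga11 was too low to test.

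Fibronectin and tenascin receptor alpha chains overlapped between the groups as well. Itga5 was 2866 to 3191 normalized counts in vehicle and 2686 to 3734 with PEG-glutaminase (0.04 ± 0.12). Itga9, which binds tenascin and VCAM-1, had a difference of 0.30 ± 0.15 (limma adjusted p = 0.305), which was 0.18 without vehicle 2 and 0.46 without vehicle 3. Itga8, a receptor chain for nephronectin, was at 13.9 to 33.4 (-0.44 ± 0.37). Leaving out single libraries gave -0.75 to -0.19 for Itga8, the latter without PEG-glutaminase 2, and leaving out vehicle 1 as well gave -0.089. None of these chains separated the groups.

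Leukocyte integrin chains were read beside leukocyte markers. Itgal, the alpha chain of LFA-1 on lymphocytes, stood at 876, 821 and 1267 normalized counts in vehicle and at 776, 328 and 979 with PEG-glutaminase (-0.62 ± 0.47; limma adjusted p = 0.522). The low value of PEG-glutaminase 2 sits in the library with the fewest T and NK cell markers. Over 8 such markers the sums were 1305, 1334 and 1736 in vehicle and 751, 236 and 1088 with PEG-glutaminase, without overlap. All 8 markers had a negative difference, and for 5 the groups did not overlap, against 12.7% of all genes. Only Cd3d (12.5% of the markers) had an unadjusted limma p under 0.05, against 9.51% of all genes in that direction. None passed the adjusted threshold in limma, DESeq2 called 1, and the SE ran up to 1.14 for Cd8a. Without PEG-glutaminase 2 and vehicle 1 the Itgal difference was -0.23 ± 0.23. The part of lymphocytes in it was not tested.

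Itgb2, the shared beta chain of leukocytes, was 2024 to 2586 in vehicle and 1513 to 2317 with PEG-glutaminase (-0.20 ± 0.17). Without PEG-glutaminase 2 the Itgb2 difference was -0.032. Itgam, which with Itgb2 forms Mac-1 on macrophages and neutrophils, was 840 to 1257 and 927 to 1280.2 (0.08 ± 0.18). Per kb, the ratio of Itgal to Itgb2 overlapped between the groups. That of Itgam to Itgb2 was 0.288 ± 0.0228 in vehicle and 0.350 ± 0.0382 with PEG-glutaminase. For this ratio the groups were only just apart, at 0.308 in vehicle 3 and 0.312 in PEG-glutaminase 3. Beside the Itgam ratio, the 6 myeloid markers summed to 24105 to 30391 in vehicle and 31387 to 37679 with PEG-glutaminase. Of these only Mrc1 and Lyz2 (33.3%) had an unadjusted limma p under 0.05, both higher, against 8.92% of all genes in that direction. Only for these 2 did the groups not overlap, against 13.1% of all genes. The other 4 overlapped, with differences of 0.09 to 0.14, and without Mrc1 the sums overlapped (21988 to 27736 and 26662 to 28906). Their part in the ratio was not tested. Itgad, another partner of Itgb2, was low at 9.90 to 27.5 and overlapped.

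Both leukocyte alpha chains outside the symbol rule were lower in all treated tumours, as 12.7% of all genes were. Itgax, CD11c of dendritic cells and some macrophages, stood at 335, 309 and 253 normalized counts in vehicle and at 147, 101 and 172 with PEG-glutaminase (-1.11 ± 0.20; limma adjusted p = 0.111; DESeq2 adjusted p = 0.000221). Itgae, CD103 of tissue-resident lymphocytes and a dendritic cell subset, stood at 86.0, 61.8 and 83.4 in vehicle and at 57.0, 48.5 and 37.0 with PEG-glutaminase (-0.69 ± 0.24; limma adjusted p = 0.185). The 7 dendritic cell markers summed to 5529 to 9097 in vehicle and 1692 to 3229 with PEG-glutaminase, also without overlap. H2-Aa, a class II gene of other antigen-presenting cells too, made up 77.8% to 91.8% of that sum, and the other 6 markers summed to 452 to 743 and 342 to 415. Of the 7, H2-Aa, Ciita and Xcr1 were lower in every treated tumour, as 12.7% of all genes were. The other 4 overlapped, with Cd209a (0.63) and Zbtb46 (0.07) on the positive side. The 3 lower ones (42.9%) had an unadjusted limma p under 0.05, against 9.51% of all genes in that direction. None passed the adjusted threshold in limma, and DESeq2 called all 3, against 4.18% of all genes. The part of dendritic cells in Itgax and Itgae was not tested.

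Itgb7, the partner of Itgae and Itga4, overlapped between the groups. It stood at 2563, 2402 and 2733 normalized counts in vehicle and 2783, 2465 and 2394 with PEG-glutaminase, a difference of -0.01 with a 95% interval of -0.21 to 0.18. Itga4, which pairs with Itgb7 or Itgb1 on leukocytes, was 0.10 ± 0.20. Over the 6 libraries Itgb7 averaged 953 normalized counts per kb, Itgb2 averaged 699 and Itga4 averaged 30.3. Which cells of the tumour held the Itgb7 RNA was not tested.

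**Figure D5:**
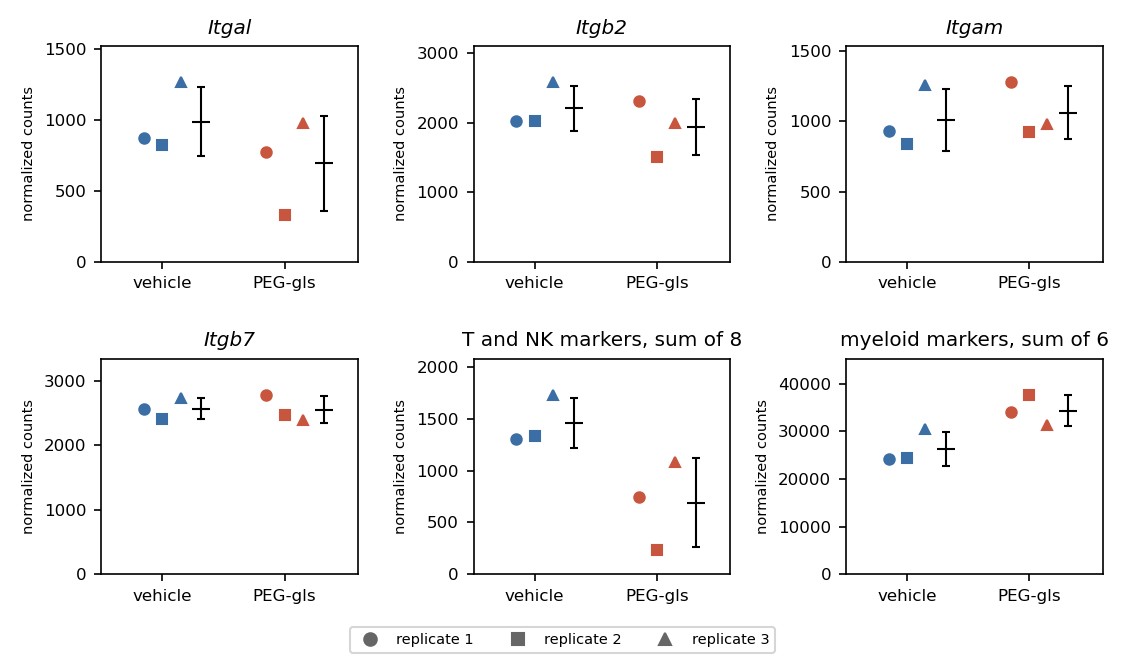
Normalized counts of 4 leukocyte integrin chains and of summed T and NK cell or myeloid marker genes in each library, with group mean and SD (n = 3); PEG-gls is PEG-glutaminase and the shape gives the replicate. Itgal and the T and NK sum are both lowest in PEG-glutaminase 2 (328 and 236), while Itgb7 stays between 2394 and 2783 in all 6 libraries.

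Itga2b, the alpha chain of the platelet fibrinogen receptor, stood at 130.4, 143 and 103.0 normalized counts in vehicle and at 102.5, 56.4 and 79.2 with PEG-glutaminase. The highest treated value and the lowest control value were nearly equal, so the groups were only just apart. The difference was -0.68 ± 0.24 (limma adjusted p = 0.188; DESeq2 adjusted p = 0.150). Without vehicle 1 and PEG-glutaminase 2 it was -0.43, and its unadjusted p was no longer under 0.05. The 5 platelet markers summed to 388, 480 and 248 in vehicle and to 530, 558 and 441 with PEG-glutaminase, most of it Pf4, and Gp6 was at 0 in all libraries. These sums overlapped between the groups, and their part in the Itga2b value was not tested.

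Integrin activators and adaptors were read from a list of 26, of which 25 were tested. None passed in limma, DESeq2 called 0, and the median was -0.07. At an unadjusted p under 0.05 there were 2 (8%), both lower, against 9.51% of all genes in that direction. These were the leukocyte-enriched Ptk2b, the kinase PYK2, at 680.0, 600.3 and 773 normalized counts in vehicle and 508, 335 and 565 with PEG-glutaminase (-0.57 ± 0.20; limma adjusted p = 0.202), and Parvg, the gamma parvin of blood cells (-0.47 ± 0.20; limma adjusted p = 0.246). Both were lowest in PEG-glutaminase 2, and without it the differences were -0.35 and -0.24. Tln1, the talin that opens integrins, was 0.26 ± 0.12 higher with overlapping groups, and Zyx, of focal adhesions, was -0.16 ± 0.08. Leaving out vehicle 1 and PEG-glutaminase 2 together turned the count to 3 higher and 1 lower. Without vehicle 1 alone it was 2 higher and 0 lower, without vehicle 3 it was 0, and without vehicle 2 it was 1 lower.

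Other ligands and counter-receptors were read from a list of 22, of which 15 were tested. None passed in limma, and 3 of 15 (20%) had an unadjusted p under 0.05, all lower, against 9.51% of all genes in that direction and 18.4% in either. The median was -0.19, and DESeq2 called 1, Tgfbi. Cdh1, the epithelial cadherin that Itgae binds, stood at 125, 59.8 and 52.0 normalized counts in vehicle and at 31.1, 35.6 and 37.0 with PEG-glutaminase (-1.06 ± 0.32; limma adjusted p = 0.154). Vehicle 1 was highest, the library with most keratinocyte markers, whose part was not tested, and without it the Cdh1 difference was -0.68 ± 0.26. Vcam1, the counter-receptor of Itga4, was -0.25 ± 0.09 (limma adjusted p = 0.213). Tgfbi, a matrix ligand of several integrins, was -0.53 ± 0.21 with overlapping groups, and Npnt, the ligand of Itga8, was 0.40 ± 0.19. Without vehicle 1 and PEG-glutaminase 2 the count was 1, lower, and the median 0.01, and without PEG-glutaminase 2 alone the count was also 1.

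The 4 members too low to test were Itga11 (2.06 to 9.32 normalized counts), Itgb6 (0 to 3.92), Lamc3 (1.96 to 8.23) and Lama1. Lama1, the alpha chain of the early embryonic laminin-111, had 2.90 in vehicle 1 and 0 in the other 5 libraries. No comparison was made for these.

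Each family was also averaged within each library. The mean deviation of the 9 tested laminins from their own mean was 0.15, -0.30 and -0.13 on the log2 scale in vehicle 1, 2 and 3, and -0.05, 0.18 and 0.15 with PEG-glutaminase. For the 23 tested integrin genes it was 0.15, -0.07 and 0.10 in vehicle and 0.03, -0.23 and 0.02 with PEG-glutaminase. Both means overlapped between the groups. Vehicle 2 was the lowest library for 5 of 9 laminins, and PEG-glutaminase 2 was the lowest for 10 of 23 integrins. In that library laminins stood above and integrins below their means.

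The authors' deposited table holds a comparison of its own, which called 2 of the 25 members that have an adjusted p there, against 3.94% of all genes. In the authors' deposited table these were Itgbl1 (log2 fold change -0.48, SE 0.12, adjusted p = 0.00879) and Itgb5 (-0.40, SE 0.12, adjusted p = 0.0255). Its mean signal matched the mean of the 6 libraries within 0.1% for 4.548% of genes (of genes with a mean of at least 50). Which samples and which scaling it used was not stated. In the authors' deposited table Lamb1, Lamc1 and Lama5 were 0.16, 0.23 and 0.26 higher with adjusted p-values of 0.552, 0.363 and 0.435.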

How the data were processed

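Libraries were made from poly-A RNA with random hexamer priming, per the labels' protocols. STAR, featureCounts, DESeq2, DESeq and FastQC are listed in the submitters' processing notes without versions. The identifiers of the gene models carry a BALB/cJ prefix, per the deposited table. The version of that build, the strand and the aligner's options, not given in the sources used here, could not be checked. The authors deposited 1 table, which gives per gene model an expression signal for each library, reads scaled by its size factor. Per the file headers, the deposited table also holds the authors' own comparison: a Wald score, a p-value with its adjusted form, and a log2 fold change with an error. The 40396 rows hold 40303 gene models, and each was used once; no member was repeated.

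Groups and replicate numbers came from the sample titles, and replicates are separate mice. Dividing by a per-library step gave whole numbers for 100% of non-zero values (tolerance 0.01), and these recovered reads served the count tests. A separate check could not judge PEG-glutaminase 2, whose step lies near 1. Because the deposited values are normalized, limma 3.58.1 (R 4.3.3; mean trend, robust) was run on log2(value + 1), two-sided, on the 13557 genes with a mean of at least 10, with Benjamini-Hochberg adjusted p-values. The limma fit was also run on simulated counts with the same dispersion for all genes and no library standing apart. That setting is simpler than these data, and no result here rests on it. Alternatives were dropping the filter, raising it to a mean of 50, pseudocounts of 0.5 and 5, DESeq2 1.42.0, edgeR 4.0.16 with TMM scaling, TMM scaling in limma, a block for the replicate number, each library left out in turn, and vehicle 1 and PEG-glutaminase 2 left out together.

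Marker sums without 1 gene were added after the values were seen. The members, the gene lists and the tests were chosen with earlier results of these data known. Values were printed for every library for members with an unadjusted p under 0.05 or belonging to a heterodimer or trimer described, and up to 4 genes of lowest p were named per companion list. GENCODE M21 gave the length of the longest transcript for all 36 members and, being built on the GRCm38 reference and not on BALB/cJ models, was used for nothing else. 1 tested member entered the fits and the counts of members but is not reported here as a single gene. Per-gene coordinates were not used, and counts were not corrected for reads shared between related genes.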

Additional observations from a re-analysis of the deposited data

How the results depend on the processing

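With 3 libraries per group, limma called 5 of all genes, and this count moved with the setting: 136 with no filter, 500 with DESeq2, 1 with the replicate block, 3 without vehicle 1 and PEG-glutaminase 2 together, and 0 to 25 when single libraries were left out. It was 0 without vehicle 1, vehicle 2 or PEG-glutaminase 1. The count of members called was 0, and became 1 (Itgbl1) with no filter, 5 with DESeq2, and 0 to 1 without single libraries. Members at an unadjusted p under 0.05 numbered 9, and 6 to 11 over the alternatives. Same-numbered libraries had correlations of -0.129, -0.214 and -0.220 between their deviations, so they did not resemble each other. The replicate block called none of the members, as the main fit did, so that count says nothing on pairing. The block moved single SEs both ways. That of Itgal went from 0.47 to 0.24, with an unadjusted limma p of 0.0456, and that of Itgb4 from 0.22 to 0.11. The SE of Itgb1 rose from 0.085 to 0.116.

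Of 31 tested members reported as single genes, 22 kept their sign under all the alternatives, including all 9 at an unadjusted p under 0.05. The other 9 changed sign under at least 1; the cause was not tested. Itgb4 turned to 0.032 in edgeR, 0.028 in DESeq2 and 0.0055 with TMM scaling in limma. Without vehicle 1 and PEG-glutaminase 2 together, Itgb4 was 0.22, Itga1 0.024, Itgb7 0.011 and Lama2 -0.063. Leaving out single libraries gave ranges of -0.093 to 0.22 for Itga10, -0.15 to 0.26 for Itga4, -0.075 to 0.16 for Itga5, -0.12 to 0.76 for Itga7, -0.062 to 0.25 for Itgam, -0.20 to 0.22 for Itgb4 and -0.077 to 0.035 for Itgb7. Other differences moved by over 1.5 times with no change of sign there: -0.42 to -0.065 for Itga1, 0.036 to 0.17 for Itga6, -0.94 to -0.15 for Itgal, 0.048 to 0.17 for Itgav, 0.013 to 0.059 for Itgb1, 0.49 to 1.37 for Itga2 and 0.032 to 1.12 for Lama2; those of Itga8, Itga9, Itgb2, Itgb3, Itgb5, Lama3, Lama5, Lamb2 and Lamb3 stand with their values. Over the same omissions the family median ran from -0.0926 to 0.0348 for integrins and from 0.263 to 0.456 for laminins.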
